A study of Mus musculus with 6 samples.

Results

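Metabotropic glutamate receptors were compared between 2 ribosome-bound RNA populations of mouse cortex, on arrays that held probe sets for 6 receptor genes, Grm2, Grm3, Grm4, Grm5, Grm7 and Grm8. The members were all 9 probe sets that name exactly 1 gene in the platform's probe-to-gene table and whose symbol is one of these 6, out of 34945 probe sets with 1 gene symbol and 18193 genes in all. TRAP, translating ribosome affinity purification, uses a transgene on a bacterial artificial chromosome (BAC) that puts a tagged ribosomal protein into the cells that use a driver gene, and the tagged ribosomes are pulled from the lysate together with the messengers they carry. One group was the S100a10 line (ES691) and the other the Glt25d2 line (DU9), whose driver is now named Colgalt2; each had 3 biological replicates with 1 array each. Mice of both lines carried a BAC transgene, came from FVB stock crossed back onto C57BL/6, and no treatment is named for either. Their ages, their number per sample and whether animals were pooled are not given in the sources used here. According to the series text, the S100a10 transgene also marks some cells that are not neurons, so its RNA is not from neurons alone.

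These receptors are class C G protein-coupled receptors that sense glutamate through a large extracellular domain and act slowly, through G proteins, where ionotropic receptors act directly as channels. Group I, here Grm5, couples to Gq and phospholipase C and lies mostly around postsynaptic sites, where Homer proteins tie it to the scaffold. Group II, Grm2 and Grm3, and group III, Grm4, Grm7 and Grm8, couple to Gi and Go, lower cyclic AMP and damp transmitter release, and in cortex Grm3 and Grm5 are also known from astrocytes.

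Upstream windows are shown for Grm2, Grm3 and Grm8, the receptors with a window that passed the test on the deposited scale without 1 outlying array, so that genes higher and lower in S100a10 cells can be set beside each other. RefSeq gave a start window for 4 of the 6 genes (Grm2, Grm3, Grm7 and Grm8; build GRCm38.p6), and the 250 bases before the most upstream start are written 5′ to 3′ along the gene. The windows lie at chr9:106656110-106656359 (minus strand) for Grm2, chr5:9725353-9725602 (minus strand) for Grm3 and chr6:28135147-28135396 (minus strand) for Grm8. Capitals mark matches on either strand to any of 4 short promoter motifs. A GC box was searched as GGGCGG. The second motif, the CCAAT box, carries its letters in its name. For the TATA box the letters searched were TATAAA. The last was TGACG, the half-site of the cAMP response element.

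Grm2: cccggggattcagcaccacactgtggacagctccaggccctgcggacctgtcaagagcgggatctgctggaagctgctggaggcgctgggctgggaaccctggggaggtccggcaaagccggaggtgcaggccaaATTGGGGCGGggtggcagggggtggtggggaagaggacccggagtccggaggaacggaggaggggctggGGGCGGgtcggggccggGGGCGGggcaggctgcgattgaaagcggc

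Grm3: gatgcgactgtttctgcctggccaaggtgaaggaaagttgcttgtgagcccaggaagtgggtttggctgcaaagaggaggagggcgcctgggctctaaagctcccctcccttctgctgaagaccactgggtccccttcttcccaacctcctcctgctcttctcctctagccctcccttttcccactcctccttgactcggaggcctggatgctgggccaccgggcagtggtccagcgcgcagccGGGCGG

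Grm8: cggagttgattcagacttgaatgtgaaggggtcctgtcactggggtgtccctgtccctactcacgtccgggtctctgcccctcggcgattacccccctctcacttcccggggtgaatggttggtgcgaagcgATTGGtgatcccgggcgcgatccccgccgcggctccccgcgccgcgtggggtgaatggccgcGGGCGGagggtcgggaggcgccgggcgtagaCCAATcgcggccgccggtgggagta

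The Grm2 window held 3 GC boxes, which begin 111, 46 and 29 bases before the start, and 1 CCAAT box that shares a base with the first of them. Grm3 and Grm8 held 1 GC box each, and Grm8 held 2 CCAAT boxes. The Grm7 window at chr6:110645262-110645511 (plus strand) also held 1 GC box. None of the 4 windows held a TATA box or the cAMP half-site. Of the 32851 windows in the table, 32.7% held a GC box, 33.8% a CCAAT box, 12.4% a TATA box and 17.8% the half-site, and GC content was 71.2% in Grm2, 62.4% in Grm3, 62.0% in Grm7 and 68.4% in Grm8 against a median of 52.4%. These matches describe letters in a window and do not show that a factor binds there.

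Levels are GCRMA intensities on a linear scale. Each difference is the S100a10 minus the Glt25d2 mean on the log2 scale, fitted by limma, with p adjusted over all probe sets tested. The test covered the 21291 probe sets whose mean reached 50 in either group. Of the 9 receptor probe sets 7 passed this filter and covered all 6 genes. The other 2, both for Grm7, lay between 6.45 and 8.43 in every array. A further probe set that names Grm2 together with Gm28111 lay between 9.23 and 14.1 and was not used.

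The arrays differed as wholes before any receptor was considered. Median intensity over all probe sets was 20.4 to 21.3 in the Glt25d2 arrays and 35.5 to 35.8 in the S100a10 arrays, so that the median tested probe set differed by 0.55. GCRMA applied to all arrays together usually leaves them with like distributions, and the sources used here do not say whether both groups were normalized together. Differences and counts on the deposited scale therefore carry this offset, and rescaled values are given further on. The drivers followed the labels. Colgalt2 was 1077 ± 263 in Glt25d2 arrays and 11.6 ± 0.198 in S100a10 arrays, and the brighter S100a10 probe set was 15490 ± 2417 in S100a10 and 3237 ± 179 in Glt25d2 arrays (SD, n = 3 each). Glt25d2 replicate 3 stood apart: 7.64% of tested probe sets lay over 4-fold below the mean of Glt25d2 replicates 1 and 2 in it. Among the 7 receptor probe sets 6 did so, with folds from 5.45 to 13.0, and the seventh, Grm4, was under 50 in all 3 Glt25d2 arrays, so no fold is given for it. Receptor differences and ratios are therefore given with all 6 arrays and without that array. Subcerebral projection neuron markers, 5 of 5 tested, were lower in S100a10 arrays and 4 of 5 intratelencephalic markers were higher. Over all genes 44.4% were higher and 4.5% lower on this scale. After quantile normalization and after centring of all arrays the 5 subcerebral markers stayed lower. Of the intratelencephalic markers 3 were higher after quantile normalization and 2 after centring. Among all 11821 genes these fits called 2171 higher and 2180 lower, and 1941 and 3701. In such bulk samples fewer cells of a type and less RNA per cell cannot be told apart.

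**Figure D1:**
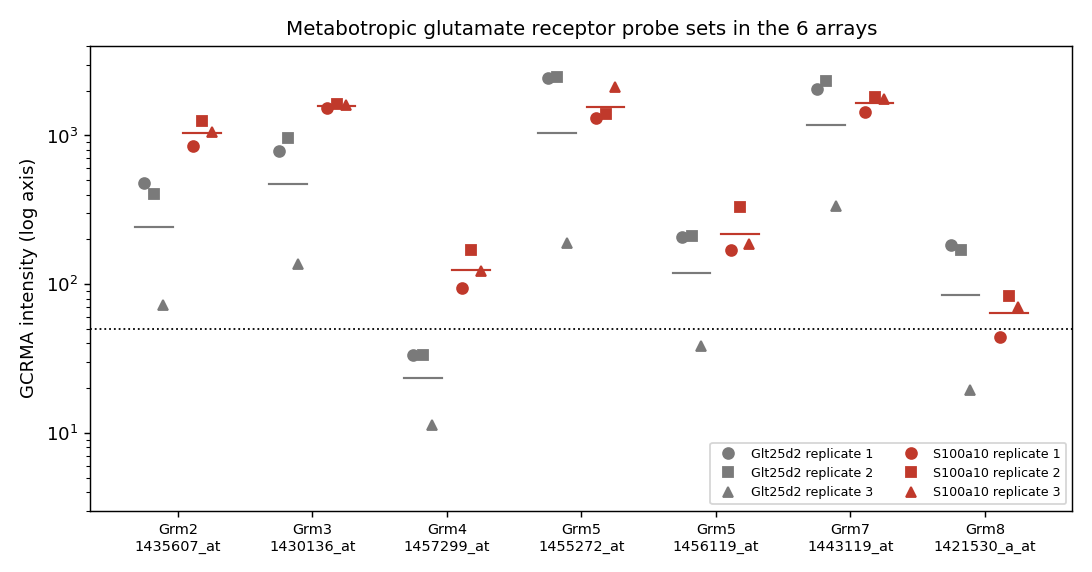
GCRMA intensity (log axis) of the 7 tested receptor probe sets in each array. Grey marks are Glt25d2 arrays, red marks S100a10 arrays, the shape gives the replicate number, short lines are the means of the log2 values, and the dotted line is the filter at 50; the grey triangles, Glt25d2 replicate 3, lie below the other 2 Glt25d2 arrays for every probe set.

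With all 6 arrays, Grm4 was the only receptor that passed the test, and it was higher in S100a10 cells. It was under 50 in all 3 Glt25d2 arrays and was tested only through the S100a10 group, which favours this direction. With both group means required to reach 50, 0 receptor probe sets were higher. Without Glt25d2 replicate 3, the group II receptors Grm2 and Grm3 were higher as well, and Grm8 and the brighter of both Grm5 probe sets were lower in S100a10 cells. With all arrays 1 of 7 probe sets was higher and 0 were lower, against 44.2% and 4.39% of all tested probe sets. At an unadjusted p under 0.05 the count was 2 higher and 0 lower. Without the array 3 were higher and 2 lower, against backgrounds of 55.1% and 6.01%. The 3 higher probe sets are a smaller share than the background, and the 2 lower ones a larger share, on 7 probe sets.

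Grm2 encodes a group II receptor that sits mainly on axons, away from the release site, and lowers glutamate release. Its intensity was 482, 401 and 72.6 in Glt25d2 replicates 1, 2 and 3, and in the S100a10 replicates it was 847, 1248 and 1061. Every S100a10 array lay above every Glt25d2 array, including replicates 1 and 2. The difference was 2.11 (SE 0.74), with a limma adjusted p = 0.061, so it did not pass. Without Glt25d2 replicate 3 it was 1.24 (SE 0.19, limma adjusted p = 0.0017), a 2.36-fold higher level in S100a10 cells. In the fit without Glt25d2 replicate 1 it passed too, at 2.61 with a limma adjusted p = 0.0455. Leaving out Glt25d2 replicate 2 instead, it did not pass (limma adjusted p = 0.0735). Nor did it pass without S100a10 replicate 1, 2 or 3 (limma adjusted p = 0.1315, 0.1645 and 0.1566).

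Grm3 encodes the other group II receptor, found on neurons and on astrocytes, which also responds to the peptide N-acetylaspartylglutamate. Intensities were 792, 965 and 137 for Glt25d2 replicates 1 to 3 and 1524, 1636 and 1603 for S100a10 replicates 1 to 3. The groups did not overlap, and the S100a10 arrays lay close together while Glt25d2 replicate 3 lay 6.39-fold below the other 2. The difference of 1.75 (SE 0.75) did not pass (limma adjusted p = 0.105). Without Glt25d2 replicate 3 it was 0.86 (SE 0.13, limma adjusted p = 0.00177), or 1.82-fold. Of 10 astrocyte markers tested, 5 were higher and 3 lower without that array, against 55.0% and 6.11% of all genes, and 3 and 2 with it, against 44.4% and 4.5%. The summed intensity of the 10 was 20240 to 26120 in S100a10 arrays and 9934 to 19910 in Glt25d2 arrays, and 5 of the 10 were over 4-fold below in Glt25d2 replicate 3. Aldh1l1, Gjb6 and Sox9 were the 3 that rose with all arrays, Gfap and Aldoc the 2 that fell, and only Gfap had a group mean under 50 (35.1 in S100a10 arrays). The part of astrocyte RNA in the Grm3 difference was not tested.

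Grm4 is a group III receptor of presynaptic terminals. It was low in both groups, at 33.2, 33.2 and 11.3 for Glt25d2, all under 50, and at 94.3, 170 and 122 for S100a10, all above 50. The groups did not overlap. The fitted difference was 2.43 (SE 0.49, limma adjusted p = 0.00896), or 1.91 (SE 0.24, limma adjusted p = 7.24e-04) without Glt25d2 replicate 3. Because the Glt25d2 side is known only as a bound, the level was at least 2.50-fold higher in the S100a10 group on the deposited scale, measured against 50. That scale carries the offset between the groups. After quantile normalization and after centring, both without Glt25d2 replicate 3, the Grm4 differences of 1.07 and 1.16 were smaller than this bound. The Grm4 probe set passed the filter through the S100a10 group alone, so the choice of tested probe sets favours a difference in this direction. Glt25d2 replicates 1 and 2 held the same value, which understates the spread.

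Grm7, the presynaptic group III receptor that sits in the active zone and needs high glutamate to respond, did not pass in either fit. Intensities were 2061, 2326 and 336 for Glt25d2 replicates 1 to 3 and 1437, 1821 and 1765 for S100a10 replicates 1 to 3. All S100a10 values lay between Glt25d2 replicate 3 and the other 2. The difference was 0.51 (SE 0.76, 95% confidence interval -1.38 to 2.40, limma adjusted p = 0.604) with all arrays. It was -0.39 (SE 0.15, interval -0.76 to -0.03) without Glt25d2 replicate 3, with a limma adjusted p = 0.0586.

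Grm8, a group III receptor with high affinity for glutamate, lay on the other side. Intensities were 182, 169 and 19.5 for Glt25d2 replicates 1 to 3 and 44.2, 83.0 and 69.7 for S100a10 replicates 1 to 3. Glt25d2 replicates 1 and 2 were above every S100a10 array and replicate 3 was below every one, so the groups overlap only through that array. Leaving out Glt25d2 replicate 1 or replicate 2 in its place turned the difference to 0.15 or 0.09. With all arrays the difference was -0.41 (SE 0.92, limma adjusted p = 0.727). Without it the difference was -1.47 (SE 0.26, limma adjusted p = 0.00321), a 2.77-fold higher level in Glt25d2 cells. One of the 3 S100a10 arrays lay under 50.

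Grm5, the group I receptor, had a pair of probe sets. The brighter one read 2443, 2472 and 189 on the Glt25d2 side and 1305, 1393 and 2108 on the S100a10 side. Glt25d2 replicates 1 and 2 were above all S100a10 arrays, and replicate 3 was 13.0-fold below them, the widest gap among the receptors. Its difference was 0.58 (SE 1.05, limma adjusted p = 0.665) with all arrays and -0.65 (SE 0.22, limma adjusted p = 0.0385) without that array. The other read 207, 212 and 38.4 on the Glt25d2 side and 169, 331 and 187 on the S100a10 side. S100a10 values lay on both sides of Glt25d2 replicates 1 and 2. Its difference was 0.88 (SE 0.73, limma adjusted p = 0.358) with all arrays and 0.06 (interval -0.63 to 0.75, limma adjusted p = 0.87) without the array. The pair therefore did not give the same call, and the lower level of Grm5 in S100a10 cells rests on 1 of 2 probe sets. Grm5 too is known from astrocytes, whose markers are given with Grm3, and their part in its values was not tested.

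Non-overlap of the groups was common in this series. With all arrays 3 of 7 receptor probe sets did not overlap (Grm2, Grm3 and Grm4) against 62.7% of all tested probe sets, and without Glt25d2 replicate 3 it was 6 of 7 against 76.9%. Neither count stands out from the background.

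**Figure D2:**
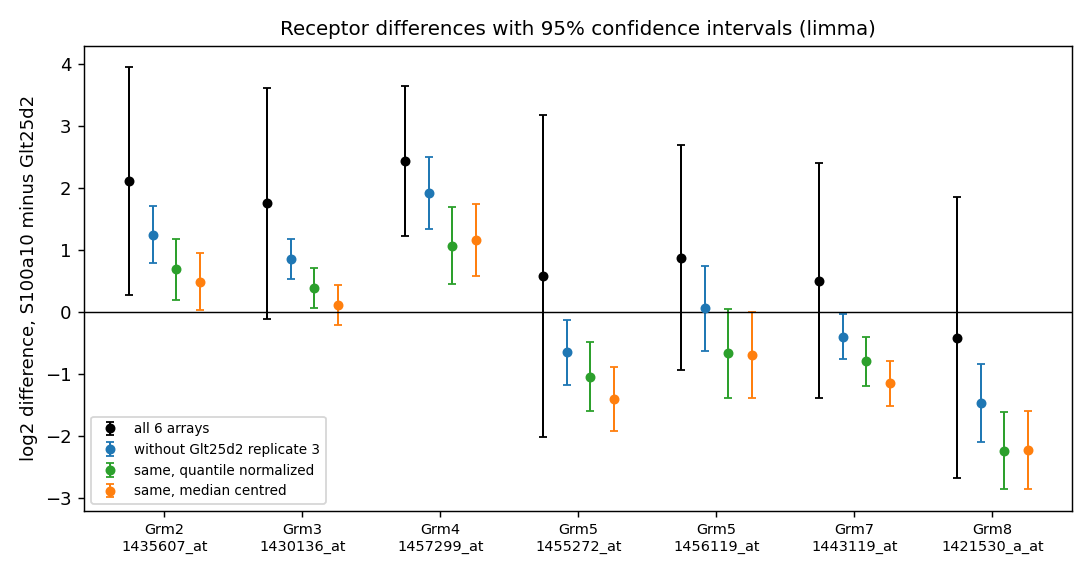
log2 difference, S100a10 minus Glt25d2, of each tested receptor probe set in 4 limma fits, with 95% confidence intervals. Leaving out Glt25d2 replicate 3 narrows every interval and lowers every value. The values of Grm2, Grm3 and Grm4 stay above 0 in all 4 fits. The Grm3 interval includes 0 with all 6 arrays (-0.11 to 3.61) and after centring without that array (-0.22 to 0.44). Grm7, Grm8 and the brighter Grm5 probe set lie below 0 in the 3 fits without that array. Grm4 differences rest on Glt25d2 values under 50 and have no exact size.

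Rescaling the arrays moved all receptors toward Glt25d2 cells. Quantile normalization of the 6 arrays brought the median tested probe set from 0.55 to -0.06 and the background to 16.8% higher and 19.4% lower, and centring on each array's median brought it to -0.21, with 15.8% and 30.3%. With all arrays, limma then called 0 receptor probe sets after quantile normalization (1 higher and 0 lower at an unadjusted p under 0.05) and 1, Grm4, after centring. Grm4 was 1.64 (limma adjusted p = 0.0546) and 1.66 (limma adjusted p = 0.0307). Its deposited Glt25d2 values were all under 50, so no fitted size for Grm4 in this paragraph is exact. Without Glt25d2 replicate 3, quantile normalization gave 2 higher (Grm2 at 0.69 and Grm4 at 1.07) and 3 lower (Grm8 at -2.24, the brighter Grm5 probe set at -1.04 and Grm7 at -0.80), against 22.4% and 24.0% of all probe sets. Centring without that array left 1 higher, Grm4 at 1.16, and the same 3 lower, against 19.5% and 36.7%. Grm2 at 0.49 and Grm3 at 0.11 did not pass there (limma adjusted p = 0.0643 and 0.513), and after quantile normalization Grm3 at 0.38 did not pass (0.0564). The signs of Grm2, Grm3, Grm4 and Grm8 were the same with and without rescaling in both sets of arrays. Those of Grm7 and Grm5 were not.

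A ratio of 2 receptors in the same array does not depend on a factor shared by the whole array or by both probe sets, and was added after the values had been seen. The absolute ratio of 2 probe sets has no meaning, since probes differ in brightness, and only its change between groups is given. The log2 ratio of Grm3 to Grm7 was -1.38, -1.27 and -1.29 for Glt25d2 and 0.09, -0.15 and -0.14 for S100a10, a difference of 1.24, and of 1.26 without Glt25d2 replicate 3. Glt25d2 replicate 3 lay between replicates 1 and 2 on this ratio, although both receptors were over 6-fold lower in it. The ratio of Grm2 to Grm7 behaved in the same way, with -2.10, -2.54 and -2.21 against -0.76, -0.55 and -0.73, a difference of 1.60 (1.64 without that array). Ratios to the brighter Grm5 probe set did not: Grm2 to Grm5 was -2.34, -2.62 and -1.38 for Glt25d2, with replicate 3 apart from the other 2, and Grm5 to Grm7 was 0.24, 0.09 and -0.83. Grm2 against Grm3 overlapped between the groups, with a difference of 0.36 and a 2-sided exact permutation p = 0.2, or 0.25 adjusted over 15 pairs. Grm5 against Grm7 also overlapped, at 0.08 (exact permutation p = 0.8, adjusted 0.8), and turned to -0.26 without Glt25d2 replicate 3. Grm2 against Grm3 was 0.38 without it. Since the distributions of intensity differ between the groups, a scaling that depends on brightness can still enter such a ratio.

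Of 15 receptor pairs 10 had ratios that did not overlap, all of them between one of Grm2, Grm3 and Grm4 and one of Grm5, Grm7 and Grm8, or between Grm8 and one of Grm5 and Grm7. Grm4 to Grm5 overlapped. Since Grm4 is under 50 in every Glt25d2 array, no size is given for its ratios. Grm2 to Grm8 differed by 2.52, Grm3 to Grm8 by 2.16 and Grm7 to Grm8 by 0.92, or by 2.71, 2.33 and 1.07 without Glt25d2 replicate 3. With 3 arrays a group the exact 2-sided permutation test cannot go below 0.10, so none could pass. The smallest value found after Benjamini-Hochberg adjustment over the 15 pairs was 0.15. Over all pairs of tested genes 57.2% had ratios that did not overlap. The receptors' share is close to that.

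**Figure D3:**
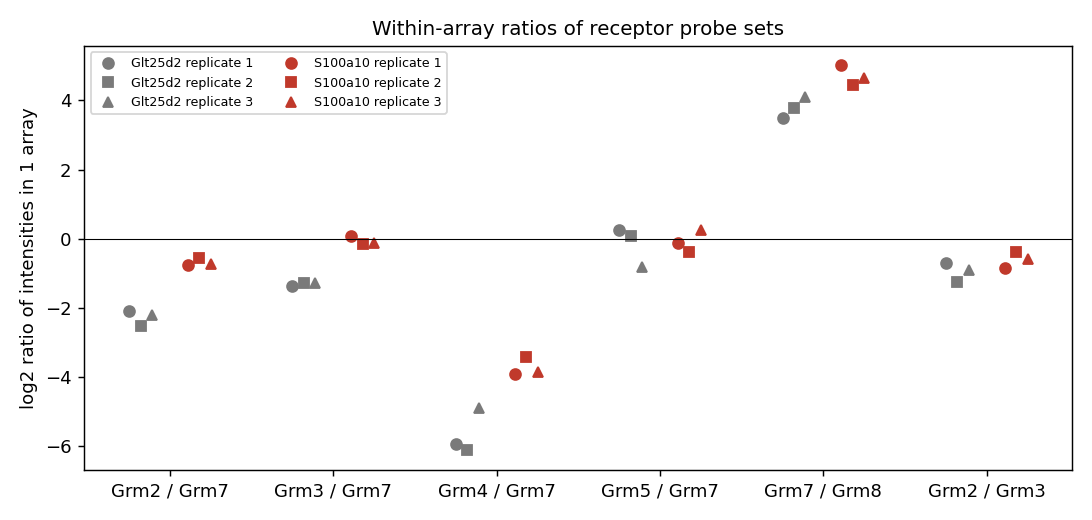
log2 ratio of 2 receptor probe sets in the same array for 6 of the 15 pairs; grey marks are Glt25d2 arrays, red marks S100a10 arrays, and the shape gives the replicate. Ratios of Grm2 and Grm3 to Grm7 separate the groups with Glt25d2 replicate 3 beside its 2 partners, whereas Grm5 to Grm7 and Grm2 to Grm3 overlap; Glt25d2 ratios of Grm4 rest on values under 50 and have no exact size.

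The downstream partners of group I receptors showed both directions. Of 17 tested genes on a list of 23, 6 were higher in S100a10 cells, 1 was lower and 10 did not pass, with a median difference of 0.29 against 0.56 for all 11821 genes, of which 44.4% were higher and 4.5% lower. Plcb4, a phospholipase C that Gq activates, fell from 3168 ± 313 to 1441 ± 86.5 (SD, n = 3 each). The limma fit put this at -1.13 (SE 0.12, adjusted p = 6.98e-04). Its arrays were 3106, 2890 and 3507 in Glt25d2 against 1509, 1470 and 1344 in S100a10, with no overlap, and it fell in each rescaled fit. Plcb3, another enzyme of that family, was under 50 in all Glt25d2 arrays and, on the deposited scale, at least 3.47-fold higher in S100a10 cells. Homer3, a scaffold of the receptor's tail, was at least 1.24-fold higher by the same bound. Shank3, which links Homer to the postsynaptic density, rose by 1.15, and was at 0.39 without passing after quantile normalization (limma adjusted p = 0.2). After quantile normalization 2 of the 17 were higher and 2 lower, and after centring 2 and 6. Over all 11821 genes these fits called 2171 higher and 2180 lower, and 1941 and 3701.

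Of 17 tested G proteins, cyclases and channels downstream of groups II and III, 5 were higher, 1 was lower and 11 did not pass. Over all genes 44.4% were higher and 4.5% lower. The median of the list was 1.01, against 0.56 for all genes. The median was 0.52 without Glt25d2 replicate 3, as for all genes (0.52). Gnai2, an inhibitory G protein alpha subunit, rose from 1177 ± 219 to 4117 ± 521 (1.82, SE 0.18, limma adjusted p = 5.71e-04) and passed in both rescaled fits. Gnai1, another such subunit, fell by 0.43 (limma adjusted p = 0.00954), but with the replicate number as a covariate 0 genes of this list were lower. The adenylate cyclases Adcy5 and Adcy1, which these G proteins inhibit, rose by 1.85 and 1.43, and Cacna1a, a presynaptic calcium channel, by 1.92. Without Glt25d2 replicate 3 these 3 were 1.35, 0.94 and 1.43, and all 3 passed. After rescaling of all arrays Adcy1 and Cacna1a did not pass, and Adcy5 passed after quantile normalization (limma adjusted p = 0.0436) but not after centring (0.0876). The count of higher genes also fell from 5 to 2 without S100a10 replicate 2 and to 2 without S100a10 replicate 3. With Glt25d2 replicate 3 omitted, 8 of the 17 were higher and 1 lower, against 55.0% and 6.11% of all genes. Quantile normalization of all arrays gave 3 and 3, against 2171 and 2180 of all 11821 genes. Quantile normalization without Glt25d2 replicate 3 gave 5 and 5, against 23.7% and 22.9%.

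Of 13 tested proteins that bind, traffic or desensitise the receptors, 7 were higher, 1 was lower and 5 did not pass, with a median of 0.50, against 44.4% higher and 4.5% lower over all genes. The count of higher genes was 4 without Glt25d2 replicate 2. Grk5, a receptor kinase, rose by 1.96 (SE 0.19, limma adjusted p = 5.84e-04), from 61.8 to 238, and by 1.09 after quantile normalization. Elfn1 and Elfn2, postsynaptic adhesion proteins that bind group III receptors across the synapse, were under 50 in every Glt25d2 array and each at least 1.59-fold higher. Neither passed after rescaling. Of 10 interneuron markers 5 were higher and 1, Pvalb, lower with all arrays, against 44.4% and 4.5% of all genes. Their summed intensities were 18350 to 23200 in S100a10 and 12850 to 19000 in Glt25d2 arrays, with no group mean under 50. In Glt25d2 replicate 3, 4 of the 10 were over 4-fold below. Without that array 6 were higher and 2 lower, against 55.0% and 6.11%. The 2 were Pvalb and Vip, which was at -0.75 (limma adjusted p = 0.00949). The part of interneurons in the receptor and Elfn1 values was not tested. The arrestin gene Arrb1 rose by 0.80, and was at 0.03 without passing after centring (limma adjusted p = 0.873). Pick1, which binds the tail of Grm7, was the 1 lower, at -0.30 (limma adjusted p = 0.0488). The lower count of this list was 0 when any 1 of the 6 arrays was left out, and also with either stricter filter, a trended prior or array weights, so the call is not a stable one. After quantile normalization Pick1 was at -0.80 and passed. Quantile normalization gave 1 higher and 2 lower, against 2171 and 2180 of all 11821 genes.

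Genes of the Grm3 agonist N-acetylaspartylglutamate and of cystine-glutamate exchange gave 1 higher and 1 lower of 3 tested. The shares over all genes were 44.4% and 4.5%. The 1 higher, Slc7a11, was tested only through the S100a10 group, as were Plcb3, Homer3, Elfn1 and Elfn2 of the other lists, which favours this direction, and with both group means required to reach 50 the count was 0. Slc7a11, the exchanger that releases glutamate outside synapses, read 8.28, 7.23 and 7.60 in Glt25d2 arrays and 366, 120 and 302 in S100a10 arrays. On the deposited scale it was at least 4.74-fold higher. Rimklb, a synthase of the peptide, was lower by 0.47 as a log2 value (limma adjusted p = 0.0134). The list had 0 lower when a gene's probe sets were averaged, and 0 with the replicate number as a covariate. Rimkla, the other synthase, did not pass, at 0.04 (limma adjusted p = 0.735), but was lower after quantile normalization, at -0.79 (limma adjusted p = 0.00653). Its deposited value was 158.9 in every Glt25d2 array, which understates the spread, and 154 to 177 in S100a10 arrays. Folh1 and Naalad2, the peptidases that break the peptide down, stayed under 50 in every array. Of 7 tested markers of mural cells and fibroblasts 6 were higher in S100a10 arrays, against 44.4% higher and 4.5% lower over all genes. Rgs5 was lower, at -0.88 (limma adjusted p = 0.0045). The summed intensity of the 7 was 7276 to 9252 in S100a10 and 695 to 877 in Glt25d2 arrays. Myl9, Col1a2, Pdgfrb and Lum were under 50 on average in Glt25d2 arrays. They were tested only through the S100a10 group, which favours this direction. The part of mural cells and fibroblasts in the Slc7a11, Plcb3 and Grk5 differences was not tested.

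The loss of signal in Glt25d2 replicate 3 was uneven over these lists. Of the genes downstream of groups II and III 6 of 17 were over 4-fold below, Adcy2, Adcy3, Adcy8, Adcy9, Cacna1b and Kcnj9. All 6 encode membrane proteins, but this array was known beforehand to be low for those. The other tested cyclases and channels of the list, Adcy1, Adcy5, Cacna1a and Kcnj3, lay 2.82-fold, 2.79-fold, 2.78-fold and 1.86-fold below. Genes under 50 in all Glt25d2 arrays (Plcb3, Homer3, Elfn1, Elfn2 and Slc7a11) cannot show a loss. Among the others it was 0 of 15 in the group I list, 0 of 11 receptor partners and 0 of 2 in the peptide and exchange list, against 8.43% of all genes. Trpc1 and Ptpn5 of the group I list lay 3.04-fold and 3.005-fold below, under the 4-fold limit. None of the 6 genes over 4-fold below passed with all arrays, with differences from 0.95 to 1.77. Without that array the differences were -0.18 to 0.67, and Adcy2 at 0.52 and Kcnj9 at 0.67 passed (limma adjusted p = 0.0166 and 0.00717).

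**Figure D4:**
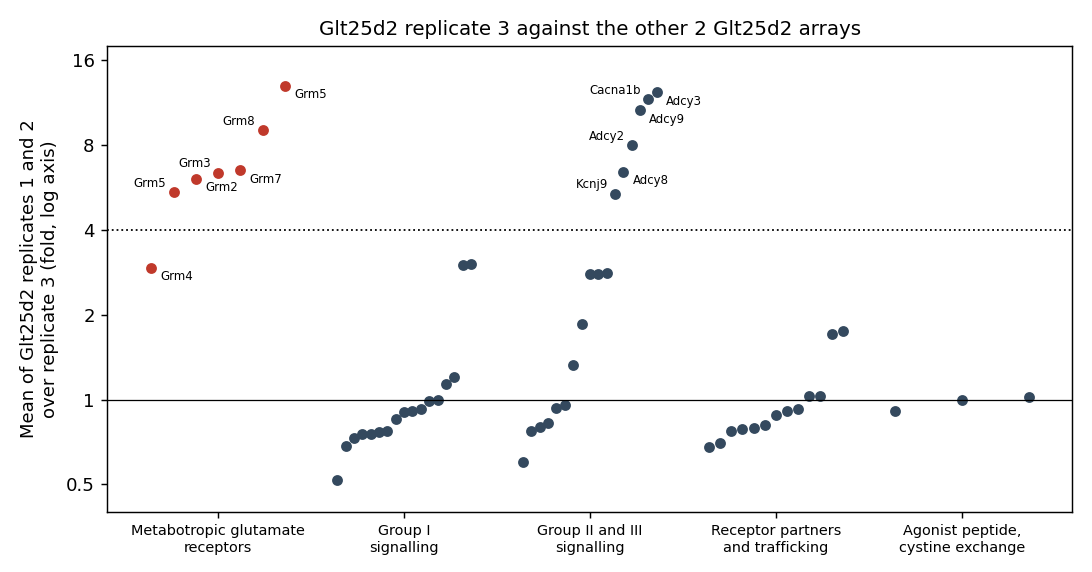
Mean of Glt25d2 replicates 1 and 2 divided by replicate 3 (fold, log axis) for each tested receptor probe set (red) and each tested gene of the 4 signalling lists (dark); the dotted line marks 4-fold. Named are the receptors and the list genes above the line: 6 of 7 receptor probe sets and 6 of 17 genes downstream of groups II and III lie above it, and 0 of the other lists; Grm4 and 5 list genes were under 50 in every Glt25d2 array, so their folds are not measures of loss.

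The genes whose profile over the 6 arrays was nearest to each receptor were found by the root mean square difference of mean-centred log2 values, over all 11821 genes, as a description with no test. For Grm2 they were Reep5 (0.0988), Derl2 (0.123) and Tmem184b (0.125). For Grm3 they were Prxl2a and G6pc3 (0.0936 each) and the ephrin receptor gene Epha4 (0.107), and for Grm4 Reep3 (0.121), the plexin gene Plxnb2 (0.123) and Slc5a6 (0.163). Grm7 lay nearest to the latrophilin gene Adgrl2 (0.0588), then Scd2 (0.0751) and Emc3 (0.0987). The sodium channel gene Scn1a (0.148), Disp2 (0.162) and Adgrb3 (0.167) were nearest to Grm5, and the adhesion genes Cdh13 (0.15) and Cntn6 (0.163) with the glypican gene Gpc4 (0.164) to Grm8. Among the receptors, Grm2 and Grm3 were each other's nearest, at 0.274, and Grm5 and Grm7 were each other's nearest, at 0.385. Grm4 was nearest to Grm2 (0.401) and Grm8 to Grm7 (0.519). The profile of Grm4 rests on Glt25d2 values under 50, and all 6 receptors were lower in Glt25d2 replicate 3 than in the other 2.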

How the data were processed

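RNA bound to tagged ribosomes in cortex was measured on 6 Affymetrix arrays. The deposited values are GCRMA intensities on a linear scale, per the submitters' processing notes, with no version named. The design text speaks of averaged replicates, whereas the deposited table has 6 columns, 1 per array. Log2 values without a pseudocount were fitted with limma 3.58.1 in R 4.3.3 over the 21291 probe sets whose mean reached 50 in either group, with no covariate, and p was adjusted by Benjamini-Hochberg (threshold 0.05). A gene was represented by its kept probe set of highest mean log2 value. A group with all 3 arrays under 50 has only an upper limit, so the fold given is the other group's geometric mean over 50. Such a bound applies to the deposited scale and not to rescaled values. Intervals are 95% and, like the p-values, rest on 3 arrays a group, or on 2 in the group that had an array left out. These numbers limit the precision. Glt25d2 replicates 1 and 2 held the same value in 3154 of the 21291 tested probe sets, which understates the spread there. Titles call the samples biological replicates, but nothing links them to animals.

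All member probe sets are named, and of each signalling list up to 4 genes with the largest differences among those that passed; other list genes (such as Gnai1, Pick1, Rimkla and the 6 over 4-fold below in Glt25d2 replicate 3) were chosen after their values were seen. Members and lists were chosen with earlier results of these data known, and within-array ratios after seeing the data. The fit was tested on simulated data. Filters, scalings, a replicate block, array weights and omission of each array were tried. Gene symbols came from the platform table, of whose 34945 single-gene probe sets 34741 matched RefSeq (GRCm38.p6); 932 probe sets named several genes and 9160 none.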

Additional observations from a re-analysis of the deposited data

How the results depend on the processing

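With all arrays, 1 receptor probe set was higher in S100a10 cells and 0 lower. The count of higher receptors was 2 without a filter, where the addition was a Grm7 probe set of 6.45 to 8.43, and 0 with both group means required to reach 50, which removes Grm4. It was 0 after quantile normalization, 2 after the same without Glt25d2 replicate 3, 2 with array weights, and 1 to 3 when each array was left out. The count of lower receptors was 3 after quantile normalization and 3 after median centring, both without Glt25d2 replicate 3, 1 with array weights, and 0 to 2 when each array was left out. Over all probe sets 9405 were higher and 934 lower. Higher and lower counts were 19640 and 5131 without a filter, 3574 and 4128 after quantile normalization, 3363 and 6447 after centring, 4770 and 5108 after quantile normalization without Glt25d2 replicate 3, and 4158 and 7804 after centring without it. Array weights gave 1537 lower, and leaving out each array gave 7361 to 11722 higher and 617 to 1278 lower.

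The brighter Grm5 probe set turned to -0.19 after centring, -1.04 and -1.40 after quantile normalization and centring without Glt25d2 replicate 3, -0.55 with array weights and -0.65 without that array alone, and leaving out single arrays put it between -0.65 and 1.2. Grm7 turned under the same settings, to -0.26, -0.80, -1.15, -0.41 and -0.39, with -0.39 to 1.0 over single omissions. The other Grm5 probe set turned to -0.66 and -0.69 in the rescaled fits without that array. Grm8 turned to 0.15 without Glt25d2 replicate 1 and 0.09 without replicate 2, a range of -1.47 to 0.15 over single omissions. The cause was not tested.

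Deviations of same-numbered replicates from their group means had correlations of -0.452, 0.224 and -0.238. With 3 arrays a group, 1 of them outlying, these values cannot decide whether the numbers pair the samples. A replicate block gave 1 receptor higher, Grm4 (limma adjusted p = 0.0205), and 7457 probe sets higher and 558 lower. Under it 0 genes were lower in the group II and III list, the partner list and the peptide list, which had 1 each (Gnai1, Pick1 and Rimklb). Probe sets under 50, and the third Glt25d2 array, limit what can be read for Grm4 and Grm8.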
